A study of Homo sapiens with 8 samples.

Results

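The 33 genes described here are known from leukaemic stem cells and from normal blood stem and progenitor cells. They were taken by symbol from a table of read counts for 57992 human genes, and 33 of 33 were found. RNA was sequenced from the human leukaemia cell lines KG1A and U937, each grown with dialyzed serum and given either 10 mM of an agent labelled dG, which the labels do not spell out, or the vehicle PBS, with 2 libraries for each line and treatment. KG1A is an established line of immature CD34+ blasts, U937 an established line of monocytic precursors, and the labels call both AML (acute myeloid leukaemia) lines. The length of treatment was not given in the sources used here. Nothing in the labels says whether replicates came from separate cultures, so p-values measure the spread between these libraries, which may be technical. The comparisons ask how the mRNA of these genes differed between dG and PBS in each line, and whether that difference was unequal between the lines.

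Acute myeloid leukaemia is thought to be sustained by a minority of immature cells that keep features of normal blood stem cells, such as the surface protein CD34 and a network of transcription factors that hold cells in a stem or progenitor state. TAL1, LYL1, LMO2, GATA2, RUNX1, ERG and FLI1 bind many blood stem cell enhancers together and are called the heptad, while MYB, SOX4, HLF, MECOM and MN1 are known for sustaining self-renewal or leukaemic growth. As progenitors mature towards monocytes or granulocytes, CD34 and many of these factors are usually turned down.

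The libraries held 21053724 to 31135338 counted reads. A list of 6 immature blast genes (CD34, PROM1, SPINK2, CD200, FLT3, BAALC) summed to 1123 to 1126 CPM (counts per 1000000 reads, scaled) in KG1A in PBS and to 0.941 to 0.956 CPM in U937 in PBS, although FLT3 had only 2 reads over both KG1A libraries. FLT3 had more reads in U937, 17 over both PBS libraries. All 6 genes of the immature blast list are among the genes described here, so its sums are not an independent check of cell identity. Its dG sums, given below, restate results for these genes. CD34 and BAALC gave most of the KG1A sum, at means of 931 and 142 CPM in PBS. A list of 10 monoblast genes summed to 791 to 795 CPM in U937 and to 0.718 to 0.823 CPM in KG1A. Of that list, MPO and CD14 were near 0 in U937, at 0.0453 and 0.0268 RPKM (reads per kilobase of exon and 1000000 reads, the authors' deposited unit, which allows genes of unequal length to be compared). KG1A also carried T cell genes: a list of 8 T and B lymphoid genes summed to 111.5 to 112.9 CPM in PBS and to 129.2 to 132.5 CPM in dG. Of these, CD3D stood at a mean of 104 RPKM in PBS and 106 RPKM in dG, and CD3E at 3.84 and 7.29 RPKM. In dG the monoblast list summed to 1254 to 1272 CPM in U937 and to 1.01 to 1.24 CPM in KG1A, and the immature blast list to 1419 to 1427 CPM in KG1A and to 2.28 to 2.52 CPM in U937. The monoblast genes did not move together in U937. Mean CPM went from 23.7 to 222 for LYZ, from 265 to 441 for CD4 and from 152 to 333 for AZU1. PRTN3 went down from 197 to 96.8 CPM, and MPO, CSF1R and CD14 were not higher. ELANE, CD33 and FCGR1A were higher by fewer CPM. In bulk RNA a change in the share of cells of a type and a change in RNA per cell cannot be told apart, and the part of these marker lists in the results below was not tested.

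In KG1A most of the genes were higher in dG than in PBS, by small amounts. Of the 33, 30 were tested and had more than 3 reads in both groups, and 20 of these rose, 1 fell and 9 did not pass the test (edgeR's quasi-likelihood F test, Benjamini-Hochberg adjustment over 18314 genes, threshold 0.05, no minimum fold). Over all genes tested, 49.1% were called in the same comparison, 29.6% higher and 19.6% lower, against 66.7% and 3.33% of these 30. The bases are unlike: all genes tested include those with few KG1A reads, while the 30 had more than 3 in both groups. This holds for every share of all genes tested given below. With KG1A fitted alone, which also changes the scaling, 28.6% of 16118 genes were called higher and 27.3% lower, and 17 and 3 of the 30. The shares depend on the scaling as well: with library totals alone 25% of all genes tested were called higher and 24.2% lower, and 17 and 3 of the 30. Without either U937 dG library, 23.9% and 23.2% of all genes were called higher and lower, and again 17 and 3 of the 30, whose median log2 fold change was then 0.15 against 0.00 for all genes. With all libraries and edgeR's scaling, the median was 0.22 for the 30 genes and 0.04 for all genes tested. Together the 33 genes stood at 4279 and 4220 CPM in the PBS libraries and at 5173 and 5177 CPM in the dG libraries. Rises of at least 2-fold were called for 4 genes, 13.3% against 5.64% of all genes tested, and falls of at least 2-fold for 0 of the 30, where 1.15% of all genes tested fell that far. In 27 of the 30 the dG and PBS libraries did not overlap, which held for 70.2% of all genes tested.

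**Figure D1:**
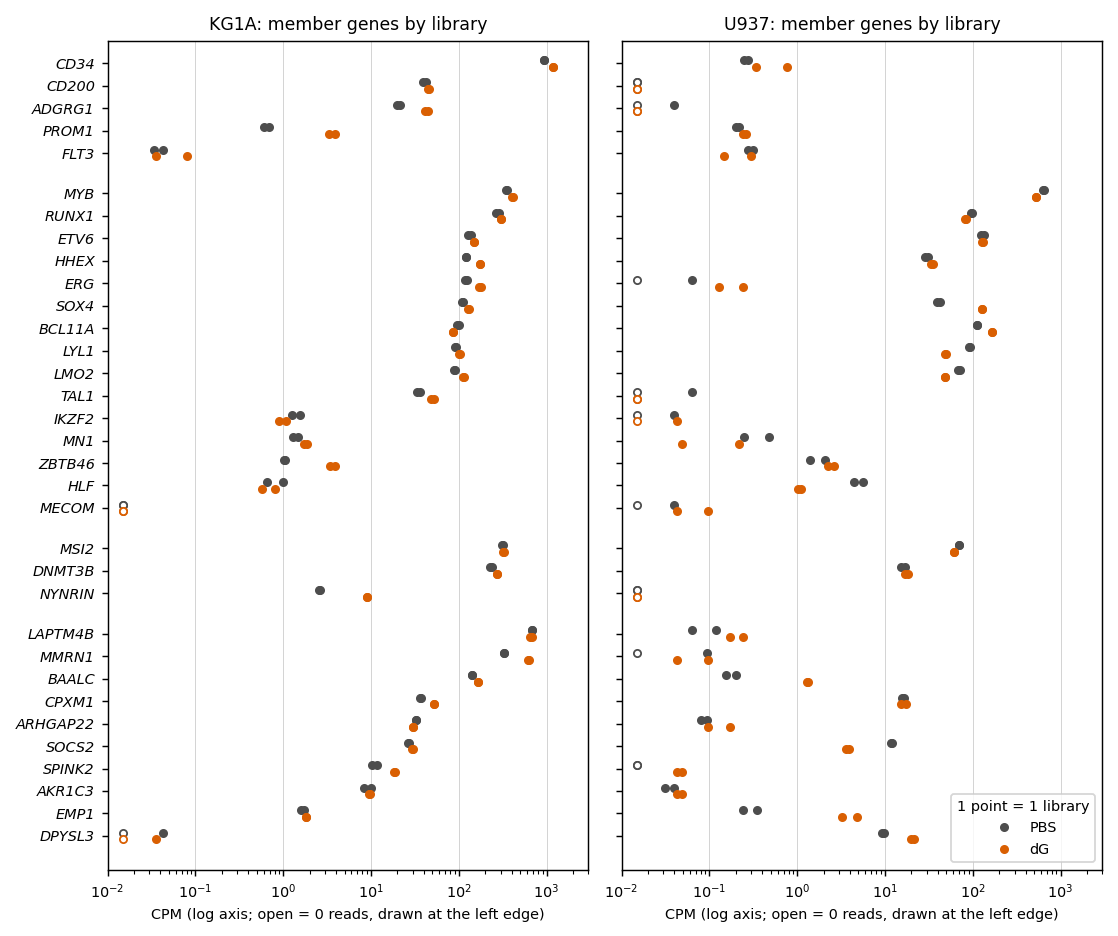
CPM (log axis) of the 33 genes in each of the 8 libraries, in blocks from top to bottom of surface proteins, transcription factors and cofactors, RNA and chromatin genes, and other genes; 1 point is 1 library and open points have 0 reads. In KG1A the dG points of MMRN1, ADGRG1, NYNRIN, ZBTB46 and PROM1 lie to the right of the PBS points, while in U937 MMRN1, ADGRG1, NYNRIN and PROM1 have few reads or none.

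Among the surface proteins, 4 of the 4 that could be evaluated rose in KG1A. CD34 (chr1:207880972-207911402 in hg38), the sialomucin used to define immature blood cells, stood at 931 and 930 CPM in PBS and at 1194 and 1186 CPM in dG. Both dG libraries lay above both PBS libraries, and CD34 was already abundant for its length, at 103 RPKM in PBS, rank 308 of the 25755 genes with reads. The difference was 0.35 ± 0.03 on the log2 scale (SE, 2 libraries a group), or 1.28-fold, with an adjusted p of 3.19e-12 by edgeR.

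PROM1 (chr4:15963076-16084378) encodes the stem cell antigen CD133. It had 14 and 20 reads in PBS and 110 and 82 in dG, that is 0.606 and 0.684 against 3.91 and 3.31 CPM, with no overlap between the groups. The rise was the largest among the 30 genes in KG1A, 5.54-fold (log2 2.47 ± 0.24, edgeR adjusted p = 3.92e-11), from a level that stayed low, at 0.471 RPKM in dG. PROM1 shares 2.23% of its exon length with FGFBP2 on the same strand, for which 94 reads were counted in PBS and 124 in dG.

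ADGRG1 (chr16:57610652-57665580) encodes the adhesion receptor GPR56, a marker of leukaemic cells that can repopulate. Its level was 20.01 and 21.3 CPM in PBS and 44.6 and 40.9 CPM in dG, 2.07-fold higher (log2 1.05 ± 0.07, edgeR adjusted p = 8.06e-15). CD200, a ligand that restrains myeloid cells, went from 42.5 and 39.1 to 45.0 and 46.3 CPM, a small rise (log2 0.17 ± 0.06, edgeR adjusted p = 0.0227). Of 17 alternative analyses, 11 did not call CD200, with adjusted p-values from 0.0165 to 0.453. FLT3, a receptor tyrosine kinase often mutated in AML, had 1 and 1 reads in PBS and 1 and 2 in dG in KG1A, so it gives no fold change.

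Of the 14 transcription factors and cofactors evaluated in KG1A, 10 rose, 1 fell and 3 did not pass the test. ERG, an ETS factor of blood stem cells, rose from 125 and 117 to 171 and 181 CPM (log2 0.54 ± 0.04, edgeR adjusted p = 3.20e-13). TAL1, a basic helix-loop-helix factor, rose from 33.7 and 36.4 to 48.7 and 52.8 CPM (log2 0.53 ± 0.06). HHEX, a homeobox factor of early progenitors, rose from 122 and 119 to 172 and 175 CPM (log2 0.52 ± 0.04). For these 3 genes both dG libraries lay above both PBS libraries by more than the gap within either pair. LMO2, the bridging protein of TAL1 complexes, rose from 87.5 and 90.4 to 112 and 114 CPM (log2 0.34 ± 0.04). MYB, which sustains progenitor proliferation, rose from 356 and 346 to 401 and 412 CPM (log2 0.21 ± 0.03). SOX4, an HMG-box factor, and ETV6, an ETS repressor, rose by 0.22 ± 0.04 and 0.17 ± 0.04 on the log2 scale.

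LYL1, a relative of TAL1, and RUNX1, the DNA-binding subunit of core binding factor, were called higher by the smallest folds. LYL1 went from 91.7 and 93.3 to 103 and 101 CPM (1.10-fold, edgeR adjusted p = 0.00403) and RUNX1 from 290 and 268 to 303 and 305 CPM (1.09-fold, edgeR adjusted p = 0.00342). Both were lost in 9 of 17 alternative analyses, among them the scaling of libraries by their totals alone.

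ZBTB46 (chr20:63743666-63831244), a zinc finger factor best known from dendritic cells, rose the most among the transcription factors, from 1.04 and 1.03 to 3.91 and 3.39 CPM (3.54-fold, log2 1.82 ± 0.22, edgeR adjusted p = 7.73e-09). BCL11A, a zinc finger repressor of fetal haemoglobin, was the gene called lower, from 100.3 and 96.0 to 85.3 and 86.7 CPM (log2 -0.19 ± 0.04, edgeR adjusted p = 0.000185). IKZF2, an Ikaros-family factor, had 36 and 37 reads in PBS and 30 and 22 in dG and did not pass the test (log2 -0.51 ± 0.28, adjusted p = 0.14 by edgeR). HLF, a stem cell bZIP factor, had 23 and 19 reads against 16 and 20, and MN1, a coactivator linked to AML, 34 and 38 against 53 and 43. Neither passed the test, and at these depths the 95% interval of the log2 difference was wide, from -0.94 to 0.46 for HLF and from -0.10 to 0.89 for MN1. MECOM, the EVI1 stem cell factor, had 0 reads in all 4 KG1A libraries.

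The heptad, a list added after the values had been seen, was called higher in KG1A for 7 of 7 genes, where 29.6% of all genes tested were, with a median log2 fold change of 0.34. Beside the 5 heptad genes among the 33, GATA2 went from 114 and 113 to 143 and 139 CPM (log2 0.31 ± 0.04) and FLI1 from 435 and 426 to 605 and 615 CPM (log2 0.50 ± 0.03). Of the 5 heptad genes among the 33, ERG, TAL1 and LMO2 were called in all 17 alternatives and LYL1 and RUNX1 in 8, and GATA2 and FLI1 were not run through them.

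The promoters of TAL1, ERG and RUNX1 are shown because these heptad genes rose together in KG1A, and that of MMRN1 because it gained the most RPKM in KG1A among the 33 genes, in absolute terms and not by fold. Each is the 250 bases upstream of a RefSeq start on GRCh38.p14, 5′ to 3′ on the gene's strand, and such windows were found for 28 of the 33 genes, not for LAPTM4B, SOCS2, LMO2, MN1 and BAALC. Capitals mark the ETS, RUNX, GATA and E-box letters searched, on either strand, and matches may overlap. For ETS factors these were CCGGAA and the alternative form AGGAAG. RUNX letters were TGTGGT and the alternative form TGCGGT. For GATA factors they were AGATAA and the alternative form TGATAA. E-box letters were CAGCTG and the alternative form CAGATG. MYB letters, AACGG and AACTG, were searched too but are not marked or counted in the windows shown. The TAL1 window is chr1:47231716-47231965 on the minus strand, with 4 RUNX and 2 ETS matches. The ERG window is chr21:38498505-38498754 on the minus strand, with 1 ETS, 1 GATA and 1 E-box match. The RUNX1 window is chr21:34888700-34888949 on the minus strand, with 1 ETS match, and the MMRN1 window is chr4:89879261-89879510 on the plus strand, with none of the marked letters. RefSeq starts gave 2 windows for TAL1, 4 for ERG and 2 for MMRN1, and the 1 printed for each was chosen after the matches were counted. The other TAL1 window and the other MMRN1 window each held 1 ETS and 1 GATA match, and of the other 3 ERG windows 1 held the same pair of matches and 2 held none of the marked letters.
TAL1: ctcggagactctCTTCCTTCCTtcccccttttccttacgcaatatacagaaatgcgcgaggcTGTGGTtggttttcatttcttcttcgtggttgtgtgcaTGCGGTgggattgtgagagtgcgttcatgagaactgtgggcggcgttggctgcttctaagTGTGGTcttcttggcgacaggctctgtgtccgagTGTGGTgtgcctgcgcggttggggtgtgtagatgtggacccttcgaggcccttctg
ERG: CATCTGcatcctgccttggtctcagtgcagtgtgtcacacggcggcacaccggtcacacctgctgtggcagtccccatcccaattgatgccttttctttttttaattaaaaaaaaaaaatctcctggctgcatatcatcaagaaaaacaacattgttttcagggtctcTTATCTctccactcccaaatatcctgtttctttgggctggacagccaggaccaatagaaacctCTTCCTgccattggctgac
RUNX1: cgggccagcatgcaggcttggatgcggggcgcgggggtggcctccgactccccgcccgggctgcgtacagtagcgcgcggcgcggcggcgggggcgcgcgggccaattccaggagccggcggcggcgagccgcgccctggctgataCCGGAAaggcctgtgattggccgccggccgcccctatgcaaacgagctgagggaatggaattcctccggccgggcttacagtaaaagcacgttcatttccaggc
MMRN1: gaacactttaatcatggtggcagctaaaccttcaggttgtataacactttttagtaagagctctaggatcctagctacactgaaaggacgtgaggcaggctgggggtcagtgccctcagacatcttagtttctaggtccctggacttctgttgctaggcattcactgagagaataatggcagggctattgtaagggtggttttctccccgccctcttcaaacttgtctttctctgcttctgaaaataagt

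Counted by gene, with a match in any of its windows, such matches were about as frequent in all promoters. ETS letters lay in 46.4% of the 28 genes and 44.1% of all 27305 genes with windows, RUNX letters in 21.4% and 19.3%, GATA letters in 25.0% and 17.5%, and E-box letters in 32.1% and 28.2%. MYB letters lay in 57.1% and 50.7%. Genes with more windows have more room for a match, so shares by window are given too. ETS letters lay in 34.0% of the 53 windows of these genes and 39.3% of all 35116 windows. RUNX letters lay in 11.3% and 16.3%, GATA letters in 18.9% and 14.6%, E-box letters in 18.9% and 24.3%, and MYB letters in 43.4% and 45.6%. A match is a run of letters and not a measured binding site.

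Of the RNA and chromatin genes, NYNRIN (chr14:24398786-24419288), a gene of the 17-gene leukaemic stem cell score with a ribonuclease-like domain, rose from 2.60 and 2.53 to 8.92 and 9.12 CPM in KG1A (3.51-fold, log2 1.81 ± 0.14, edgeR adjusted p = 7.20e-13). DNMT3B, a de novo DNA methyltransferase, rose from 237 and 227 to 273 and 270 CPM (log2 0.23 ± 0.04). MSI2, an RNA-binding protein of blood stem cells, stood at 323 and 308 CPM in PBS and 320 and 326 CPM in dG. The libraries of MSI2 overlapped between the groups, and its log2 difference had a 95% interval from -0.03 to 0.11.

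Of the 9 remaining genes evaluated in KG1A, 4 rose and 5 did not pass the test. MMRN1 (chr4:89879532-89954629), a multimerin of platelets and endothelium that also marks leukaemic stem cells, rose from 331 and 330 to 618 and 624 CPM. That is 1.88-fold (log2 0.91 ± 0.03, edgeR adjusted p = 1.71e-22), and the level per length went from 61.0 to 109 RPKM. SPINK2, a serine protease inhibitor of early progenitors, rose from 10.4 and 11.8 to 18.7 and 18.4 CPM (log2 0.73 ± 0.09). CPXM1, a carboxypeptidase-like protein, rose from 36.7 and 36.6 to 52.8 and 52.4 CPM (log2 0.52 ± 0.06). BAALC, a marker of immature blasts, rose from 141 and 142 to 165 and 165 CPM (log2 0.22 ± 0.04).

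LAPTM4B, a lysosomal membrane protein, was the most abundant of the 33 genes per length, at 218 RPKM in KG1A in PBS. Its level was 677 and 690 CPM in PBS and 676 and 653 CPM in dG and did not pass the test, with a 95% interval of the log2 difference from -0.10 to 0.02. ARHGAP22, a GTPase-activating protein, went from 32.7 and 32.4 to 29.8 and 30.5 CPM without passing the test. With library totals alone as the scaling, LAPTM4B and ARHGAP22 were called lower. SOCS2, a feedback inhibitor of cytokine signalling, stood at 26.4 and 27.2 CPM against 29.3 and 30.2 CPM (log2 0.15 ± 0.07, edgeR adjusted p = 0.06). EMP1, an epithelial membrane protein, had 40 and 47 reads in PBS and 51 and 45 in dG, and AKR1C3, an aldo-keto reductase, 8.23 and 10.1 CPM against 9.45 and 9.64 CPM. Reads of AKR1C3 may be shared with its near-identical relatives AKR1C1, AKR1C2 and AKR1C4, which had 0 reads in KG1A, so its value is uncertain. DPYSL3, a cytoskeletal phosphoprotein, had 1 and 0 reads in PBS and 1 and 0 in dG.

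**Figure D2:**
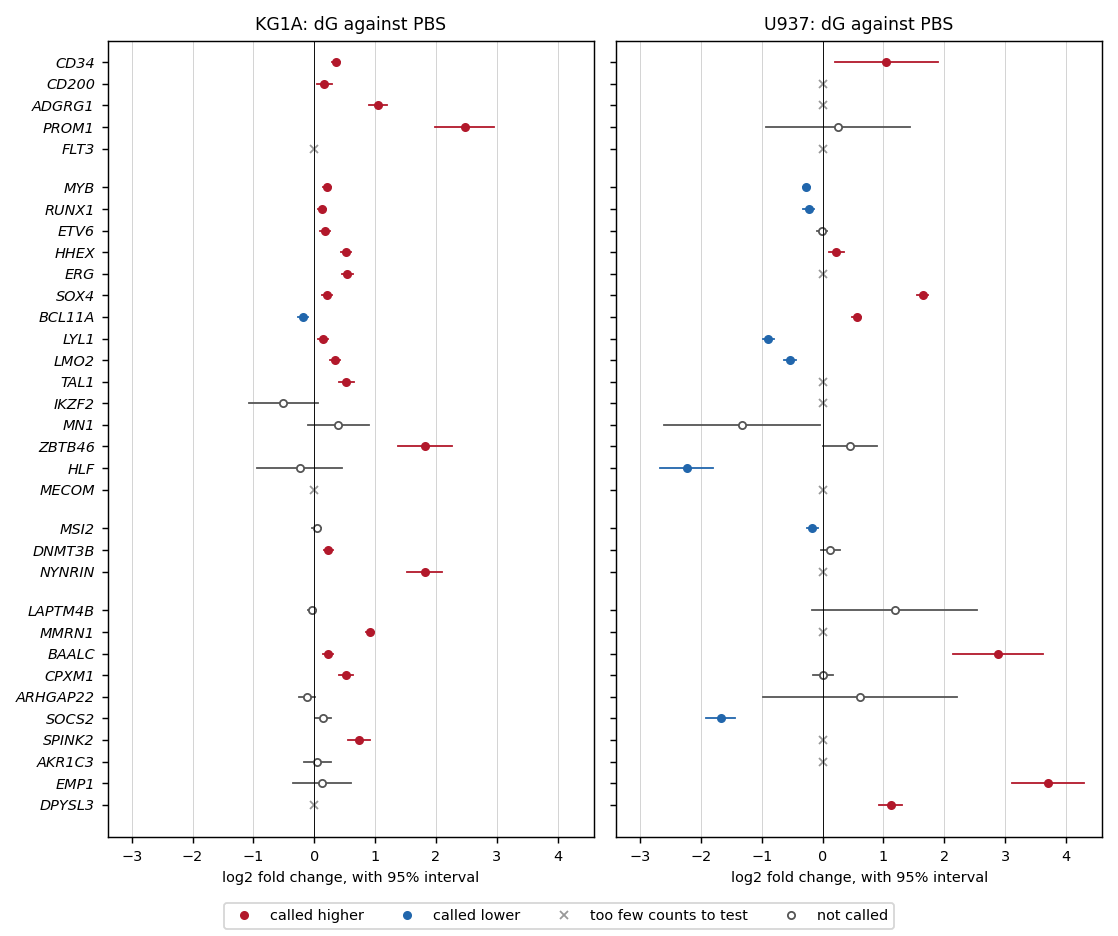
Log2 fold change, dG against PBS, with its 95% interval for each gene in KG1A (left) and U937 (right), in the same order as the plot of counts by library; filled points passed edgeR's test at an adjusted p of 0.05 and crosses had too few counts to test. The KG1A points lie mostly just right of 0 and reach 2.47 for PROM1, while the U937 points run from -2.24 for HLF to 3.71 for EMP1.

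In U937 the genes that had reads changed in both directions. Of the 33, 22 were tested and had more than 3 reads in both groups, and 7 rose, 7 fell and 8 did not pass the test. Over all genes tested 64% were called in U937, 32.4% higher and 31.5% lower, so 31.8% in each direction among the 22 is near the background. Rises of at least 2-fold were called for 5 genes (22.7%, against 9.71% of all genes tested) and falls of that size for 2 (9.09%, against 7.74%). Of the 22, CD34, MN1, PROM1, ARHGAP22 and LAPTM4B passed the filter on low counts only through their KG1A reads, since the filter on U937 alone dropped these 5. CD34 was the one of them called, at least 2-fold higher. EMP1 and BAALC, also called at least 2-fold higher, had 17 and 10 reads over both U937 PBS libraries. Among the U937 libraries they reached the filter's level only in dG. The share of rises of at least 2-fold is therefore not an independent finding. The median log2 fold change was 0.18 for the 22 genes and 0.00 for all genes tested. The dG and PBS libraries did not overlap for 19 of the 22, against 78.9% of all genes tested.

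EMP1 (chr12:13196716-13219939) rose the most in U937, from 11 and 6 reads to 75 and 98, or from 0.345 and 0.239 to 3.23 and 4.75 CPM (13.1-fold, log2 3.71 ± 0.29, edgeR adjusted p = 8.83e-14). BAALC rose from 5 and 5 reads to 31 and 27, or from 0.157 and 0.199 to 1.34 and 1.31 CPM (7.36-fold, log2 2.88 ± 0.36). The U937 dG level of BAALC was still 0.934% of its KG1A level in PBS. CD34 had 8 and 7 reads in PBS and 8 and 16 in dG (log2 1.04 ± 0.42, edgeR adjusted p = 0.0378), and its PBS level in U937 was 0.0285% of that in KG1A. The CD34 rise in U937 rested on the second dG library: without it the log2 difference was 0.45 and the adjusted p 0.585, and 7 of 16 alternatives did not call it.

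SOX4 rose from 42.3 and 39.5 to 128 and 127 CPM in U937 (3.12-fold, log2 1.64 ± 0.05, edgeR adjusted p = 3.50e-27). In KG1A its level in dG was 130 and 126 CPM. DPYSL3 (chr5:147390811-147510056) rose from 9.85 and 9.20 to 19.9 and 21.6 CPM (2.17-fold, log2 1.12 ± 0.09). BCL11A, which fell in KG1A, rose from 113 and 113 to 164 and 168 CPM (log2 0.56 ± 0.04). HHEX rose from 28.3 and 30.95 to 35.6 and 33.2 CPM (log2 0.22 ± 0.06), a call lost without the first PBS library (adjusted p = 0.0725 by edgeR).

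HLF (chr17:55265012-55325065) fell the most, from 5.58 and 4.46 to 1.03 and 1.11 CPM in U937 (4.71-fold lower, log2 -2.24 ± 0.21, edgeR adjusted p = 1.61e-11). SOCS2 fell from 12.1 and 11.8 to 3.62 and 3.88 CPM (3.20-fold lower, log2 -1.68 ± 0.12). LYL1 fell from 93.4 and 90.7 to 50.1 and 48.9 CPM (log2 -0.90 ± 0.05). For these 3 genes the 2 libraries of each group lay close together and far from the other pair. LMO2 fell from 70.9 and 68.4 to 48.4 and 47.9 CPM (log2 -0.53 ± 0.05) and MYB from 642 and 625 to 529 and 524 CPM (log2 -0.27 ± 0.03). RUNX1 fell from 98.6 and 95.1 to 83.7 and 81.8 CPM (log2 -0.23 ± 0.04) and MSI2 from 69.3 and 69.0 to 61.4 and 61.5 CPM (log2 -0.17 ± 0.04), the latter lost in 8 of 17 alternatives. Of the heptad, 5 genes could be evaluated in U937. Of these 3 fell (LYL1, LMO2, RUNX1), 0 rose and 2 (GATA2 and FLI1) did not pass the test, where 31.5% of all genes tested fell and 32.4% rose.

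The 8 genes evaluated but not called in U937 were PROM1, MN1, ETV6, ZBTB46, DNMT3B, ARHGAP22, LAPTM4B and CPXM1. ETV6 stood at 134 and 124 CPM in PBS and 128 and 130 CPM in dG, with a 95% interval of the log2 difference from -0.09 to 0.08. ZBTB46 had 67 and 35 reads in PBS and 61 and 46 in dG (log2 0.45 ± 0.22, edgeR adjusted p = 0.0697). MN1 had 8 and 12 reads against 5 and 1 (log2 -1.33 ± 0.63, edgeR adjusted p = 0.0657).

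In the other 11 genes U937 had almost no reads. CD200 and NYNRIN had 0 reads in all 4 U937 libraries. TAL1 had 2 reads in PBS and 0 in dG, ADGRG1 had 1 and 0, and SPINK2 had 0 and 2. MMRN1 had 3 reads in each group, AKR1C3 had 2 in each group, ERG had 2 and 8, IKZF2 had 1 in each group and MECOM had 1 and 3. FLT3 had 17 reads in PBS and 10 in dG and was below the filter on low counts.

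**Figure D3:**
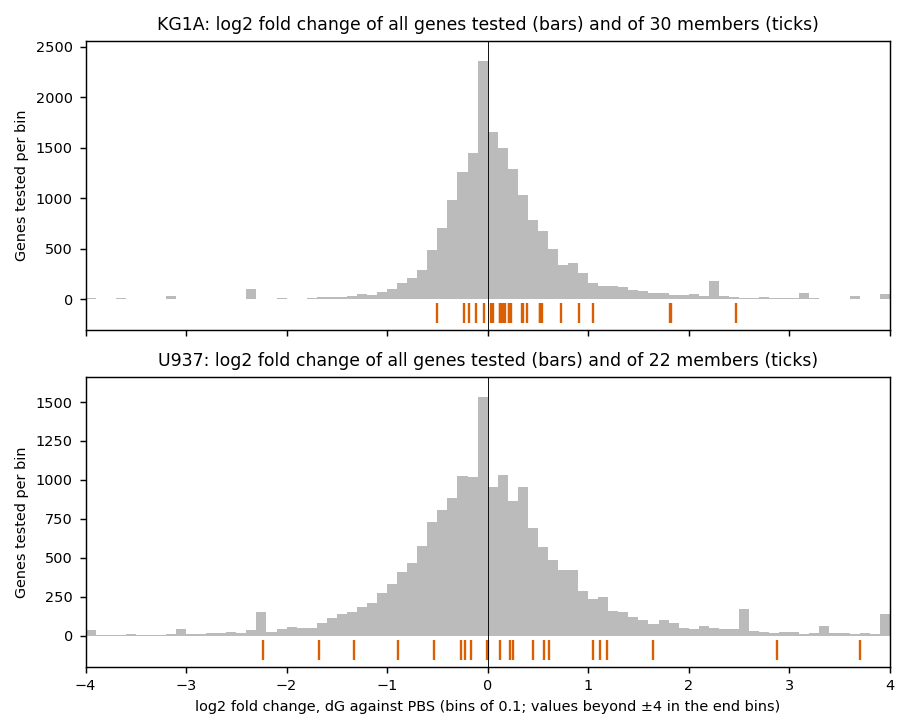
Number of genes per bin of log2 fold change (dG against PBS) over all genes tested in each line, with 1 tick below for each of the 30 genes of the set evaluated in KG1A and the 22 evaluated in U937. The KG1A ticks cluster just above 0 with a median of 0.22, and the U937 ticks spread to both sides.

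The effect of dG differed between the lines for 17 of the 21 genes that could be evaluated in both (interaction contrast in the same edgeR fit, U937 effect minus KG1A effect). Of all genes tested 44.1% differed in this way, 17.6% with a higher and 26.4% with a lower effect in U937. Among the 21, 4 had a higher effect in U937 (19.0%) and 13 a lower one (61.9%). Of these, 3 and 6 differed at least 2-fold (14.3% and 28.6%, against 4.02% and 7.04% of all genes tested). The 21 include CD34, MN1, PROM1, ARHGAP22 and LAPTM4B, which passed the filter on low counts only through their KG1A reads. Among these, PROM1 and MN1 were called, both with an at least 2-fold lower effect in U937, on few U937 reads. EMP1 and BAALC, called with an at least 2-fold higher effect in U937, had 17 and 10 reads over both U937 PBS libraries. The split over all genes depends on the scaling: 40.0% of the called differences were higher in U937 with edgeR's default factors and 50.8% with DESeq2 size factors. With DESeq2 size factors 14 of the 21 genes were called, 4 higher and 10 lower.

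Opposite calls in the lines were made for 5 of the 21 genes evaluated in both. The share of all genes tested with opposite calls, or with higher calls in both lines, was not counted. In KG1A 29.6% and 19.6% of all genes tested were called higher and lower, and in U937 32.4% and 31.5%. The counts of genes called in both lines are therefore not read as a trait of this set. LYL1, LMO2, MYB and RUNX1 were called higher in KG1A and lower in U937, with differences between the lines of -1.04 ± 0.06, -0.88 ± 0.06, -0.48 ± 0.04 and -0.35 ± 0.06 on the log2 scale. The KG1A calls of LYL1 and RUNX1 are the ones that other scalings did not keep, while those of LMO2 and MYB were kept in all 17 alternatives in both lines. BCL11A was called lower in KG1A and higher in U937 (0.75 ± 0.06, edgeR adjusted p = 8.84e-14). BAALC, CD34, HHEX and SOX4 were called higher in both lines, CD34 in U937 on few reads as described above. Of these 4, BAALC and SOX4 rose more in U937 (2.66 ± 0.37 and 1.43 ± 0.06), HHEX rose less (-0.30 ± 0.07), and CD34 did not pass the test of the difference (0.69 ± 0.42, adjusted p = 0.231 by edgeR). On the scale of log2(RPKM + 1), which understates changes of low genes, the CD34 difference was -0.238 (adjusted p = 0.00625 by limma).

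Further differences concerned genes called in 1 line, and MN1, which was called in neither. EMP1 rose in U937 beyond KG1A by 3.58 ± 0.40 on the log2 scale (edgeR adjusted p = 1.59e-09). PROM1 (-2.22 ± 0.66), HLF (-2.00 ± 0.43), SOCS2 (-1.83 ± 0.13), ZBTB46 (-1.37 ± 0.32) and CPXM1 (-0.51 ± 0.10) had lower effects in U937. The PROM1 difference was not called without the first U937 PBS library (adjusted p = 0.0566 by edgeR). MN1, MSI2 and ETV6 differed by less firm margins, and their differences were lost in 10, 8 and 10 of 16 alternatives.

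Under the vehicle PBS, 19 of the 21 genes that could be evaluated passed the test between the lines. That is 90.5%, near the 82.3% of all genes tested. The number lower in U937 was 15 of 21 (71.4%, against 40.8%), 14 of them at least 2-fold lower (66.7%, against 21.2%), and 4 were higher (19.0%, against 41.4%). The genes at least 2-fold lower include CD34, MN1, PROM1, ARHGAP22 and LAPTM4B, which passed the filter on low counts only through their KG1A reads. They also include BAALC and EMP1, with 10 and 17 reads over both U937 PBS libraries. Among the PBS libraries, BAALC and EMP1 reached the filter's level only in KG1A. For all of these genes, a lower level in U937 follows from the filter and is not an independent finding. HLF was 6.28-fold higher in U937 (log2 2.65 ± 0.22), MYB 1.81-fold, ZBTB46 1.73-fold and BCL11A 1.15-fold. LYL1 and ETV6 did not differ beyond their spread, with 95% intervals of the log2 difference from -0.09 to 0.08 and from -0.12 to 0.05.

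Per length, the order of levels in KG1A in PBS was led by LAPTM4B (218 RPKM), CD34 (103), MYB (64.9), MMRN1 (61.0), DNMT3B (50.9) and HHEX (48.7). In U937 in PBS it was led by MYB (114 RPKM), LYL1 (29.1), LMO2 (22.1), ETV6 (18.0), BCL11A (13.3) and HHEX (11.6). LAPTM4B and CD34 stood at 0.0133% and 0.0285% of their KG1A levels in U937, and MMRN1 had 3 reads over both U937 PBS libraries against 17296 in KG1A. DPYSL3 went the other way, with 545 reads over both U937 PBS libraries and 1 over both KG1A PBS libraries. The length given for BCL11A in the file is 8375 bases, against 25422 in the GENCODE 29 gene model, so its RPKM depends on the model.

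**Figure D4:**
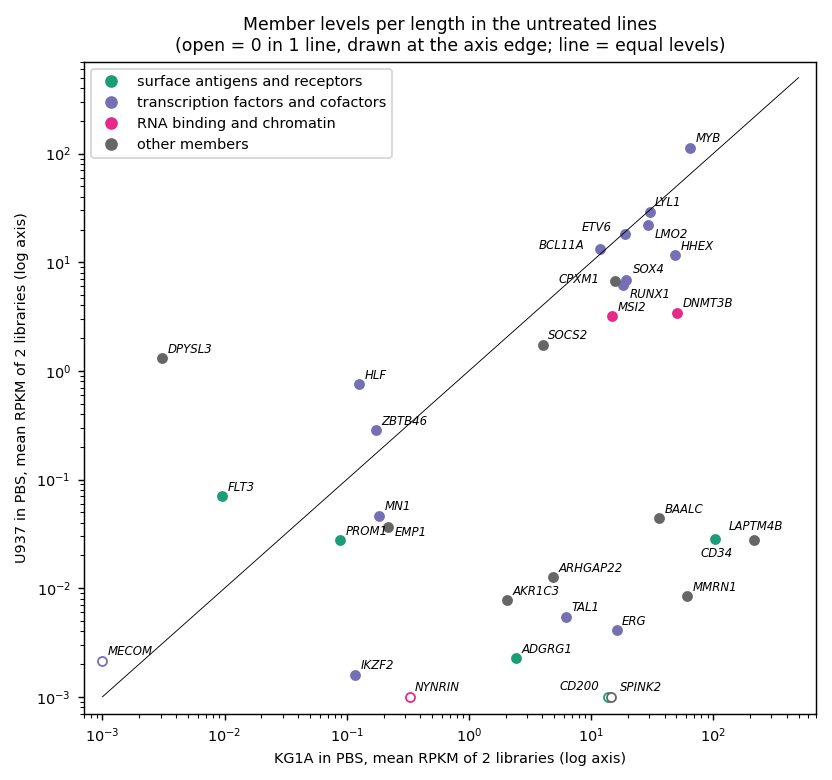
Mean RPKM of each gene in the 2 PBS libraries of KG1A (x axis) and of U937 (y axis), both log axes, coloured by role; the line marks equal levels and open points are at 0 in 1 line. MYB, LYL1, LMO2, ETV6 and BCL11A lie near the line, and LAPTM4B, CD34, MMRN1, BAALC and ERG lie far below it.

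The 17-gene leukaemic stem cell score, a published prognostic expression signature, supplies 13 of the 33 genes. In KG1A 15 of its genes could be evaluated, of which 8 rose, 2 fell and 5 did not pass the test (53.3% and 13.3% called, against 29.6% and 19.6% of all genes tested). The risers were CD34, ADGRG1, NYNRIN, MMRN1, ZBTB46, CPXM1, DNMT3B and SMIM24, and the 2 that fell were CDK6 and FAM30A. In U937, 12 could be evaluated, of which 3 rose (CD34, DPYSL3, EMP1), 3 fell (SOCS2, SMIM24, CDK6) and 6 did not pass the test. These shares of 25% in each direction stood against 32.4% and 31.5% of all genes tested. The 12 include CD34, ARHGAP22 and LAPTM4B, which passed the filter on low counts only through their KG1A reads. They also include FAM30A, with 7 reads in PBS and 5 in dG in U937. Changes in genes with so few reads are hard to call, so the lower shares are not read as a result about the score.

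A further 40 genes of stem and progenitor cells outside the 33 gave a similar count in KG1A. Of 32 evaluated, 22 rose and 4 fell (68.8% and 12.5%, against 29.6% and 19.6% of all genes tested), with a median log2 fold change of 0.43. Among the larger rises in genes with a mean of at least 1 CPM were HAVCR2, which encodes the leukaemic stem cell antigen TIM-3, CLEC12A, a myeloid lectin of leukaemic blasts, and TEK, the angiopoietin receptor. HAVCR2 went from 1.78 and 1.33 to 8.06 and 7.14 CPM (log2 2.31 ± 0.17). CLEC12A went from 0.693 and 1.26 to 4.90 and 4.28 CPM, and TEK from 17 and 15 reads to 48 and 41 (log2 1.45 ± 0.30). The falls were small: TRIM28, a corepressor, fell by 0.24, ID2, an inhibitor of helix-loop-helix factors, by 0.17, FAM30A, a long non-coding RNA, by 0.17, and CDK6, a cell cycle kinase, by 0.14 on the log2 scale. CD33, a myeloid antigen, had 2 and 1 reads in PBS and 23 and 16 in dG.

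In U937, 32 of these 40 genes were evaluated, and 13 rose and 11 fell (40.6% and 34.4%, against 32.4% and 31.5% of all genes tested). The 32 include genes with few U937 reads in PBS and dG, such as FAM30A (7 and 5), HOPX (4 and 4) and KIT (15 and 8). HAVCR2 rose there as well, from 0.721 and 0.876 to 3.32 and 4.12 CPM (log2 2.22 ± 0.23). CXCR4, the receptor that keeps blast cells in the marrow niche, rose from 624 and 628 to 1305 and 1259 CPM (log2 1.03 ± 0.03). ZFP36L2, an mRNA decay factor, and HOXA9, a homeobox factor of AML, rose by 0.76 ± 0.03 and 0.73 ± 0.04. SMIM24, a small membrane protein of the 17-gene score, fell by 0.91, TRIM28 by 0.82, TCF4, an E protein, by 0.77 and BMI1, a polycomb subunit of stem cell self-renewal, by 0.66 on the log2 scale. BEX3, THY1, IL3RA and CD99 had 0 reads in all 8 libraries. CD99 and IL3RA lie in the first pseudoautosomal region of X and Y, where 1 of 34 listed genes had any reads, 5 in all, so their 0 is not read as absence of expression.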

How the data were processed

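RNA of KG1A and U937 cells in PBS or dG was measured in 8 libraries, grouped by their titles. The authors' deposited table holds whole-number read counts per gene. Their deposited RPKM table was checked to equal those counts per kilobase of exon and per 1000000 reads of a scaled library total. The submitters' processing notes name the build hg38 and the tools HTSeq 0.11.2, TopHat2 and bcl2fastq 2.18.0.12. How strand and multiply mapped reads were handled, and from which annotation, is not given in the sources used here, so overlapping and near-identical genes are uncertain.

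CPM are counts per 1000000 reads after edgeR's TMM scaling. The 18314 genes passing filterByExpr were tested with edgeR 4.0.16 under R 4.3.3 by a two-sided quasi-likelihood F test with 1 mean per line and treatment over all 8 libraries, with 4 residual degrees of freedom. Contrasts compared dG with PBS in each line, these effects with each other, and U937 with KG1A in PBS. Standard errors are the log2 fold change divided by the root of F. P-values were adjusted by Benjamini-Hochberg over the whole table. A gene with 3 or fewer reads in a group is given as counts. The 33 genes, the further lists and the rule for naming genes (all 33; of 40 further genes up to 4 rises and 4 falls per line with a mean of at least 1 CPM) were chosen with earlier results of these data known. The heptad list was added after its values were seen. A gene that this rule names in KG1A is not reported here.

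Library totals ran from 21053724 to 31135338, so 1 read equals 0.0314 to 0.0485 CPM. On counts simulated for KG1A over 17625 genes, with 50 genes changed per fold size, the test recovered 66% of 1.25-fold and 96% of 2-fold changes, and 11 of 186 calls were false. The changed genes were few, balanced up and down, and well read in both lines in PBS. These rates therefore do not cover genes with few reads, or changes as widespread as those called here. Alternatives were DESeq2 1.42.0, its size factors, library totals alone, no filter, each line alone, a replicate block, limma 3.58.1 on log2 of the deposited RPKM plus 1 or 0.1, and leaving out each library. Promoter windows come from RefSeq on GRCh38.p14 and exon overlaps from GENCODE 29.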

Additional observations from a re-analysis of the deposited data

Results flagged for a closer look

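The dG effect differed between the lines, by the interaction contrast in edgeR, for 17 of the 21 genes evaluated in both, where 44.1% of all genes tested did. Values are log2 differences, the effect in U937 minus the effect in KG1A. The effect was higher in U937 for EMP1 (3.58), BAALC (2.66), SOX4 (1.43) and BCL11A (0.75). It was lower in U937 for PROM1 (-2.22), HLF (-2.00), SOCS2 (-1.83), MN1 (-1.73) and ZBTB46 (-1.37). Smaller differences in that direction were found for LYL1 (-1.04), LMO2 (-0.88), CPXM1 (-0.51), MYB (-0.48), RUNX1 (-0.35), HHEX (-0.30), MSI2 (-0.21) and ETV6 (-0.18). PROM1 and MN1 passed the filter on low counts only through their KG1A reads. In U937 PROM1 had 12 reads in PBS and 11 in dG, and MN1 had 20 and 6. Of these 17, EMP1, BAALC, SOX4, BCL11A, HLF, SOCS2, LYL1, LMO2 and MYB passed the test in all 16 alternatives, and the other 8 did not pass in at least 1.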

How the results depend on the processing

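Of the calls on the 33 genes, 13 of 21 in KG1A, 10 of 14 in U937, 9 of 17 for the difference and 16 of 19 between the lines in PBS held under every alternative run. The other calls were lost in at least 1, and depth limits genes with a few reads. In KG1A 3 of the 33 genes were called lower, in place of 1, with library totals alone, with no filter, with each line alone and with RPKM plus 1, and 2 with RPKM plus 0.1 and with unfiltered RPKM plus 1. Leaving out 1 library gave 1 to 3, with 3 without U937 dG replicate 1 or replicate 2. RPKM plus 0.1 called 13 higher in KG1A, in place of 20, and left 6 of the 40 further genes lower in U937, in place of 11. Unfiltered RPKM left 7 of these, and 7 of the 33 lower for the difference in place of 13. Over all genes, unfiltered RPKM called 3228 higher in KG1A (5413 in the edgeR fit). For the difference, 3119 were lower with DESeq2 and 3091 with unfiltered RPKM (4843), and 5262 were higher with RPKM plus 1 and 4865 with RPKM plus 0.1 (3230). Unfiltered RPKM tests more genes; the cause of the other changes was not tested.

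Direction turned for values that had not passed the test, each given here on the log2 scale. ETV6 in U937 was -0.01 and became 0.0833 with DESeq2 size factors, 0.0841 with DESeq2, 0.0534 with no filter, 0.0541 with RPKM plus 1, filtered or not, and 0.0568 with RPKM plus 0.1. It ran from -0.0742 to 0.0616 when 1 library was left out. MSI2 in KG1A was 0.04 and became -0.0274 with library totals alone, -0.0307 with no filter, -0.0227 with each line alone, -0.0289 with RPKM plus 1, filtered or not, and -0.0306 with RPKM plus 0.1, and ran from -0.0294 to 0.0678 with 1 library left out. AKR1C3 in KG1A was 0.05 and became -0.0152 with library totals alone, -0.0182 with no filter, -0.0110 with each line alone and -0.00025 with RPKM plus 1, filtered or not, and ran from -0.0788 to 0.213. CPXM1 in U937 was 0.0064 and became -0.0678 with library totals alone and -0.00067 with that line alone, and ran from -0.0413 to 0.154. The DNMT3B difference was -0.10 and became 0.0260 with no filter and 0.0143 with RPKM plus 0.1, and ran from -0.196 to 0.0702. The CD34 difference was 0.69 and became -0.238 with RPKM plus 1 (limma adjusted p = 0.00625 filtered and 0.0119 not), a scale on which its U937 level of 0.0283 RPKM lies below the pseudocount. With 1 library left out, HLF in KG1A (-0.24 with all libraries) ran from -0.547 to 0.0627, and between the lines ETV6 ran from -0.0903 to 0.0502 and LYL1 from -0.0262 to 0.0429.

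No pairing by replicate number was seen. Same-numbered libraries deviated from their group means with a correlation of -0.05 in KG1A and 0.008 in U937, across 18314 genes. Counting noise can hide a weak shared effect in this measure, so it does not show that the libraries were unpaired. With the replicate number as a block, 21, 14, 17 and 19 of the 33 genes were called in the 4 comparisons, the same counts as without it. Over all genes the block left 8742 calls in KG1A and 11529 in U937, and LYL1 between the lines went from -0.0064 to 0.0134.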
